A study of Mus musculus with 6 samples.

Results

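The 9 genes described here make or control the machinery of MHC class II antigen presentation, and all 9 were found by symbol among the 33679 genes of an RNA sequencing table from mouse kidneys. Of them, 3 encode chains of the classical molecules (H2-Aa, H2-Ab1 and H2-Eb1), 1 the invariant chain (Cd74), 1 the transactivator (Ciita) and 4 the chains of the peptide editors H2-M (H2-DMa, H2-DMb1) and H2-O (H2-Oa, H2-Ob). Kidneys of mice lacking Cd248 were compared with wild type kidneys, both after unilateral ureteral obstruction, in which tying off the ureter leads to scarring of the kidney. Cd248 encodes endosialin, a surface glycoprotein of fibroblasts and pericytes. The values are those of 1 knockout library (replicate 1), named simply the knockout in what follows, and of 3 wild type libraries (replicates 1, 2 and 3); the other two knockout replicates are not analysed here. Age, sex, strain and the length of the obstruction are not given in the labels, which speak of pooled RNA and do not say that replicates were separate animals. The p-values thus rest on library-to-library spread alone, and that spread may be technical.

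Class II molecules are pairs of an alpha and a beta chain that display peptides from the endosome to CD4 T cells. In dendritic cells, B cells and macrophages the newly made pair is held by the invariant chain, which blocks the groove and steers the complex to the endosome. There H2-M helps to exchange the last fragment of the invariant chain for an antigen peptide, and H2-O restrains H2-M. CIITA does not bind DNA itself. It docks on the factors that occupy the X and Y boxes of class II promoters, and interferon gamma induces it in cells that otherwise lack it, injured kidney tubules among them.

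The knockout library held more RNA of every class II gene than the wild type mean, by 1.24 to 1.61 times in FPKM (fragments per kilobase of transcript, scaled to the mapped fragments of the library), yet none of the 9 differences passed the test over all genes. Its values lay above all 3 wild type libraries for 8 of the 9 genes and within their range for H2-Oa. Over all 16871 genes tested, 28.0% lay above every wild type library and 31.2% below every one. The share above depended on scaling: it was 13.8% with libraries brought to the same FPKM total, where 7 of the 9 genes lay above, and 19.8% with immunoglobulin genes left out, where 8 did. In bulk tissue, more cells of a type and more RNA per cell cannot be told apart. On the log2(FPKM + 1) scale the median difference of the 9 genes was 0.41, against -0.01 over all tested genes. In limma's moderated linear model, 0 of 9 had a Benjamini-Hochberg adjusted p under 0.05 (adjusted p from 0.371 to 0.776), where 0.723% of all genes passed, 0.640% as higher and 0.083% as lower in the knockout. That share came to 122 genes, and 6 passed when immunoglobulin genes were left out and 45 to 73 when 1 wild type library was. At an unadjusted limma p under 0.05, 3 of the 9 passed as higher (Ciita, H2-DMa and H2-DMb1), against 5.14% of all genes. All 9 had a mean above the filter of 0.5 FPKM in the wild type libraries alone, so none was tested only because of its knockout value. In the authors' deposited table the ratios of the 9 genes ran from 1.24 to 1.61, their q-values from 0.27 to 1, and none was marked significant.

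**Figure D1:**
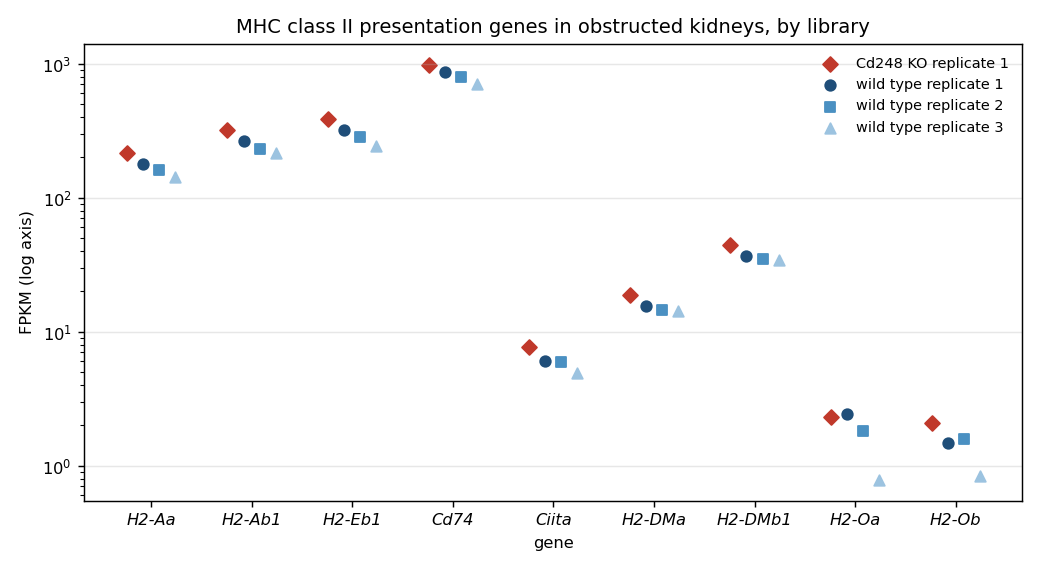
FPKM of the 9 genes in each library on a log axis, with the knockout library as red diamonds left of the 3 wild type libraries in blue. The knockout point is the highest of the 4 for every gene but H2-Oa, and levels run from 983 FPKM for Cd74 in the knockout library to 0.78 FPKM for H2-Oa in wild type library 3.

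Nephron markers were present in every library, with Umod (uromodulin of the thick ascending limb) at 473 FPKM in the knockout, against 340, 640 and 560 FPKM in wild type libraries 1, 2 and 3. The table lists Cd248 at 0 in the knockout, against 9.03, 9.57 and 8.78 FPKM in wild type libraries 1, 2 and 3, in the direction of the labels. The FPKM total was 304426 in the knockout, against 267394 to 285322 in the wild type libraries, and immunoglobulin genes took 5.98% of it against 0.113% to 0.202%. Read depth is unknown, since the table holds no counts.

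The X and Y boxes that CIITA depends on can be read in the reference sequence of 3 of these promoters, shown because they are the shared control element of the family. The sequences are from RefSeq (GRCm38.p6, the build also called mm10), 5′ to 3′ on the strand of the gene. Capitals mark GNAAC, a part of the X box that the RFX complex binds, and GATTGG, the Y box, which is an inverted CCAAT bound by NF-Y.
H2-Aa, chr17:34287865-34287912, minus strand: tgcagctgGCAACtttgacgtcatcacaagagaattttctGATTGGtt
H2-Eb1, chr17:34305768-34305814, plus strand: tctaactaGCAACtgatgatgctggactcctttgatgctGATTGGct
H2-Ob, chr17:34238810-34238854, plus strand: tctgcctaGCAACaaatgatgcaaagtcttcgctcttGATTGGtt
The bases between the marked letters numbered 27 in H2-Aa, 26 in H2-Eb1 and 24 in H2-Ob, and the marked stretches began 81, 91 and 87 bases before the RefSeq start. RefSeq promoters were matched for 6 of the 9 members. Both GNAAC and GATTGG, searched on either strand, were present in the 250 bases before the start in 6 of 6. They were also common over all promoters, in 82.1% and 16.6% of 27025 genes (79.6% and 14.6% of 32851 promoter windows). GNAAC followed by GATTGG after 20 to 30 bases, on either strand, was present in 5 of the 6 (H2-Aa, H2-Eb1, H2-DMb1, H2-Oa and H2-Ob). Over all promoters this pair was present in 0.618% of genes (0.551% of windows). It was not found in the windows of H2-DMa. The 2 motifs and the distance were chosen after these promoters had been read, and a match describes the letters only.

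Ciita (ENSMUSG00000022504; chromosome 16, 10480059 to 10528418, plus strand) was expressed at a low level. It stood at 7.74 FPKM in the knockout, against 6.01, 5.89 and 4.91 FPKM in wild type libraries 1, 2 and 3 (wild type 5.60 ± 0.60 FPKM, SD, n = 3). The knockout value, from 1 library, was above all wild type values, as it was for 28.0% of all tested genes. Ciita differed by 0.41 in log2(FPKM + 1) (SE 0.14, 95% interval 0.04 to 0.77, limma adjusted p = 0.435). Counted over whole gene spans, introns included, the Ciita model shares 25888 of its 48360 bases with Dexi on the other strand. Overlap of exons was not counted, and the strand setting of the read assignment is unknown here. Some Ciita reads may thus be shared with Dexi, to an extent that was not measured. Dexi itself was at 4.2 FPKM in the knockout, against 3.84, 3.32 and 3.17 FPKM in wild type libraries 1, 2 and 3.

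The 3 classical chain genes had almost parallel values across the libraries. H2-Aa (ENSMUSG00000036594; chromosome 17, 34282744 to 34287823, minus strand), which encodes the alpha chain of I-A, was at 216 FPKM in the knockout, against 180, 161 and 142 FPKM in wild type libraries 1, 2 and 3. H2-Ab1 (ENSMUSG00000073421; chromosome 17, 34257689 to 34269419, plus strand), the beta chain that pairs with it, was at 318 FPKM in the knockout, against 266, 232 and 214 FPKM in wild type libraries 1, 2 and 3. H2-Eb1 (ENSMUSG00000060586; chromosome 17, 34305867 to 34316674, plus strand), the beta chain of I-E, was at 385 FPKM in the knockout, against 322, 283 and 243 FPKM in wild type libraries 1, 2 and 3. For each of these genes the knockout library was highest and the wild type libraries stood in the same order, with library 1 above library 2 and library 3 lowest. The wild type libraries themselves differed: library 1 exceeded library 3 by 1.24 to 1.33 times, a ratio of single libraries. The knockout library exceeded the wild type mean, a different measure, by 1.34 times for H2-Aa, 1.34 times for H2-Ab1 and 1.36 times for H2-Eb1. The wild type SD was 18.7 FPKM for H2-Aa, 26.3 FPKM for H2-Ab1 and 39.6 FPKM for H2-Eb1. The differences were 0.43 for H2-Aa (SE 0.17, 95% interval -0.02 to 0.88), 0.42 for H2-Ab1 (SE 0.17, -0.03 to 0.87) and 0.45 for H2-Eb1 (SE 0.20, -0.08 to 0.99) on the log2(FPKM + 1) scale. Their limma adjusted p-values were 0.479, 0.488 and 0.518. These sizes depended on the scaling: with quantile normalization the differences were 0.16 for H2-Aa, 0.06 for H2-Ab1 and 0.14 for H2-Eb1 (limma adjusted p from 0.635 to 0.884). H2-Ea-ps, which encodes the alpha partner of H2-Eb1 in some strains, was not analysed here. An antisense gene, Gm20513, overlaps H2-Eb1 over 2204 bases and was at 0.63 FPKM in the knockout, against 0.28, 0.55 and 0.40 FPKM in wild type libraries 1, 2 and 3.

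Cd74 (ENSMUSG00000024610; chromosome 18, 60803848 to 60812652, plus strand) was the most abundant of the 9. It was at 983 FPKM in the knockout, against 864, 799 and 712 FPKM in wild type libraries 1, 2 and 3, and ranked 25th of all genes in the knockout, against 25th, 26th and 31st in those wild type libraries. The invariant chain gene showed the smallest difference of the 9, 0.32 on the log2(FPKM + 1) scale (SE 0.20, 95% interval -0.22 to 0.85, limma adjusted p = 0.632). Quantile normalization gave 0.11, and bringing libraries to the same FPKM total gave 0.18. The knockout value lay above all 3 wild type values.

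The H2-M genes had the narrowest wild type spread relative to their means. H2-DMa (ENSMUSG00000037649; chromosome 17, 34119541 to 34139101, plus strand), the alpha chain, was at 18.7 FPKM in the knockout, against 15.5, 14.4 and 14.3 FPKM in wild type libraries 1, 2 and 3. H2-DMb1 (ENSMUSG00000079547; chromosome 17, 34153072 to 34160230, plus strand), a beta chain, was at 44.1 FPKM in the knockout, against 36.6, 34.8 and 33.99 FPKM in wild type libraries 1, 2 and 3. In both genes the knockout library was above every wild type library. The differences were 0.33 for H2-DMa (SE 0.09, 95% interval 0.08 to 0.57, limma adjusted p = 0.371) and 0.32 for H2-DMb1 (SE 0.09, 0.08 to 0.56, adjusted p = 0.372). With libraries brought to the same FPKM total they were 0.20 for H2-DMa and 0.19 for H2-DMb1. Over whole gene spans, introns included, H2-DMa overlaps Brd2 on the other strand by 3094 bases, so its reads may be shared. Of the 50-base stretches in H2-DMb1 transcripts, 22.7% also occur in transcripts of other genes, and all of those occur in H2-DMb2, a second beta chain gene. The split between these beta chain genes is therefore uncertain. H2-DMb2 was at 19.1 FPKM in the knockout, against 16.9, 14.5 and 18.5 FPKM in wild type libraries 1, 2 and 3 (difference 0.20, 95% interval -0.22 to 0.61, limma adjusted p = 0.695).

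The H2-O genes, whose expression is best known from B cells and some dendritic cells, were the lowest and, relative to their means, the most variable. H2-Oa (ENSMUSG00000024334; chromosome 17, 34092340 to 34095234, plus strand) was at 2.32 FPKM in the knockout, against 2.43, 1.82 and 0.78 FPKM in wild type libraries 1, 2 and 3. H2-Ob (ENSMUSG00000041538; chromosome 17, 34238903 to 34254414, plus strand) was at 2.08 FPKM in the knockout, against 1.47, 1.57 and 0.84 FPKM in wild type libraries 1, 2 and 3. Wild type library 3 was lowest for both, and for H2-Oa the knockout value was below that of wild type library 1. The differences were 0.36 for H2-Oa (SE 0.40, 95% interval -0.71 to 1.43, limma adjusted p = 0.776) and 0.44 for H2-Ob (SE 0.23, -0.19 to 1.07, adjusted p = 0.582). Without wild type library 3 the H2-Oa difference was 0.09, and without library 1 it was 0.57. The antisense gene BC051537 covers all 2895 bases of H2-Oa and was at 0.01 FPKM in the knockout, against 0.15, 0.02 and 0 FPKM in wild type libraries 1, 2 and 3.

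**Figure D2:**
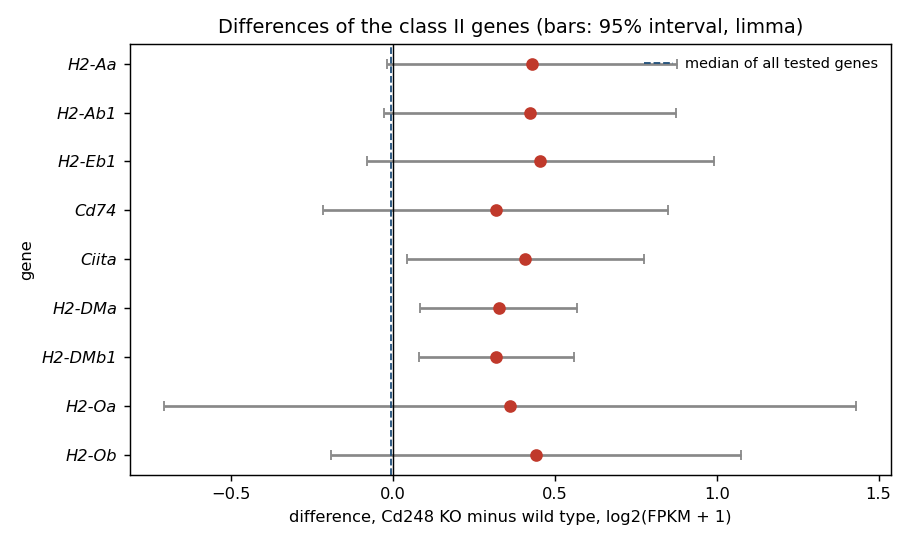
Difference of each gene, knockout minus wild type mean, on the log2(FPKM + 1) scale, with 95% intervals from limma; the dashed line is the median of all tested genes. All 9 points lie between 0.32 and 0.45, and the intervals of 6 genes include 0.

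In order of wild type mean the levels ran from Cd74 (791 ± 76.6 FPKM, SD, n = 3) through H2-Eb1 (282 ± 39.6), H2-Ab1 (238 ± 26.3), H2-Aa (161 ± 18.7), H2-DMb1 (35.1 ± 1.33), H2-DMa (14.7 ± 0.66), Ciita and H2-Oa (1.68 ± 0.83) to H2-Ob (1.29 ± 0.40). The wild type ranges of H2-Eb1 and H2-Ab1 overlapped, as did those of H2-Oa and H2-Ob, and no other neighbours in that order overlapped. The knockout library had the same order.

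Ratios between 2 genes within a library do not change when a library is scaled by 1 factor, and those among the classical chains and within the H2-M pair varied far less than the levels. H2-Aa over H2-Ab1, the chains of 1 molecule, was 0.680 in the knockout, against 0.674, 0.691 and 0.663 in wild type libraries 1, 2 and 3. H2-DMa over H2-DMb1 was 0.424 in the knockout, against 0.423, 0.414 and 0.420 in wild type libraries 1, 2 and 3. H2-Eb1 over H2-Aa was 1.78 in the knockout, against 1.79, 1.76 and 1.71 in wild type libraries 1, 2 and 3. The highest and lowest library thus differed by 1.04 times for the I-A pair, 1.03 times for the H2-M pair and 1.05 times for H2-Eb1 over H2-Aa. H2-Ab1 over Ciita, its transactivator, was 41.0 in the knockout, against 44.3, 39.4 and 43.7 in wild type libraries 1, 2 and 3. Cd74 over H2-Ab1 was 3.10 in the knockout library, below 3.25, 3.44 and 3.32 in wild type libraries 1, 2 and 3 (exact permutation test, two-sided, p = 0.25, the smallest that 1 library against 3 allows). The H2-O pair varied more, with H2-Oa over H2-Ob at 1.12 in the knockout, against 1.65, 1.16 and 0.929 in wild type libraries 1, 2 and 3.

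**Figure D3:**
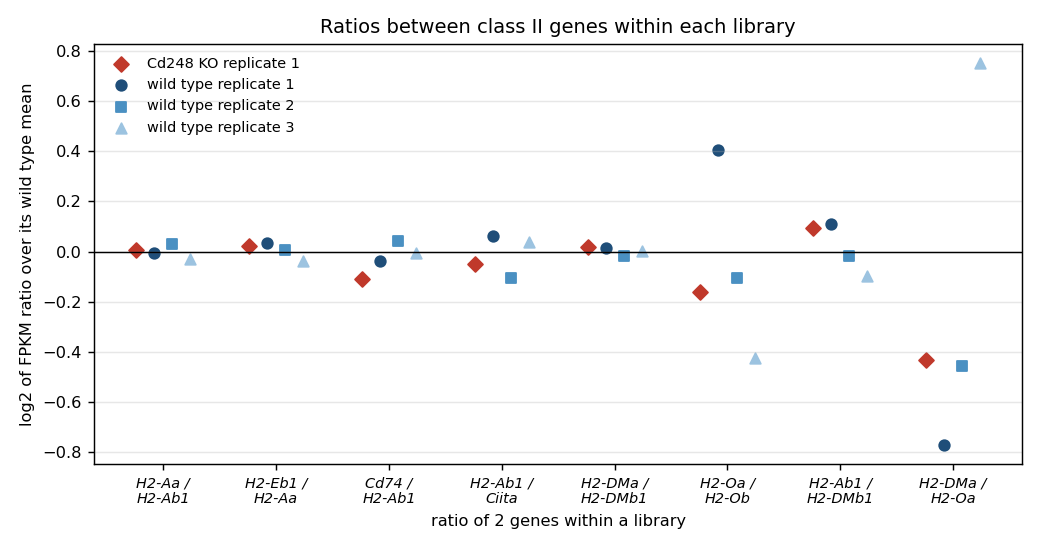
Ratios of FPKM between class II genes within each library, drawn as the log2 of the ratio over its wild type mean, with the knockout library in red left of the wild type libraries. Ratios among the classical chains, Cd74, Ciita and the H2-M genes stay near 0 in every library, and those with H2-Oa spread most.

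The 3 classical chains together came to 918 FPKM in the knockout, against 768, 676 and 599 FPKM in wild type libraries 1, 2 and 3, a log2 difference of 0.44 (exact permutation test, two-sided, p = 0.25). As a share of all FPKM they made up 0.302% in the knockout, against 0.287%, 0.242% and 0.210% in those wild type libraries. On that scale the log2 difference was 0.30 (exact permutation p = 0.50), because the FPKM total of the knockout library was the largest of the 4. Scaling all libraries to the same FPKM total moved the median of all genes by -0.11. The median difference of the 9 genes stood 0.42 above that of all genes as deposited, 0.40 above it with this scaling, which shifts most genes alike, 0.26 above it with quantile normalization and 0.33 above it without wild type library 3.

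Most of the 9 genes lie close together in the class II part of the MHC. From the start of H2-Oa to the end of H2-Eb2 (mm10 chromosome 17, 34092340 to 34341412, gene models of GENCODE M21) 15 genes were tested, 7 of them members. H2-Eb2, a further class II beta chain gene, was at 0.97 FPKM in the knockout, against 0.59, 0.51 and 0.47 FPKM in wild type libraries 1, 2 and 3 (difference 0.37, limma adjusted p = 0.460). Between H2-DMb1 and H2-Ob stand genes that serve class I presentation: Tap1, a subunit of the peptide transporter, was at 14.7 FPKM in the knockout, against 12.2, 12.1 and 10.9 FPKM in wild type libraries 1, 2 and 3, and the differences of Tap1, Tap2, Psmb8 and Psmb9 were 0.30, 0.28, 0.28 and 0.30 (limma adjusted p from 0.374 to 0.516). Brd2, a chromatin reader, was at 30.5 FPKM in the knockout, against 34.02, 33.0 and 30.4 FPKM in wild type libraries 1, 2 and 3, the only 1 of the 15 with a negative difference (-0.09, limma adjusted p = 0.787).

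**Figure D4:**
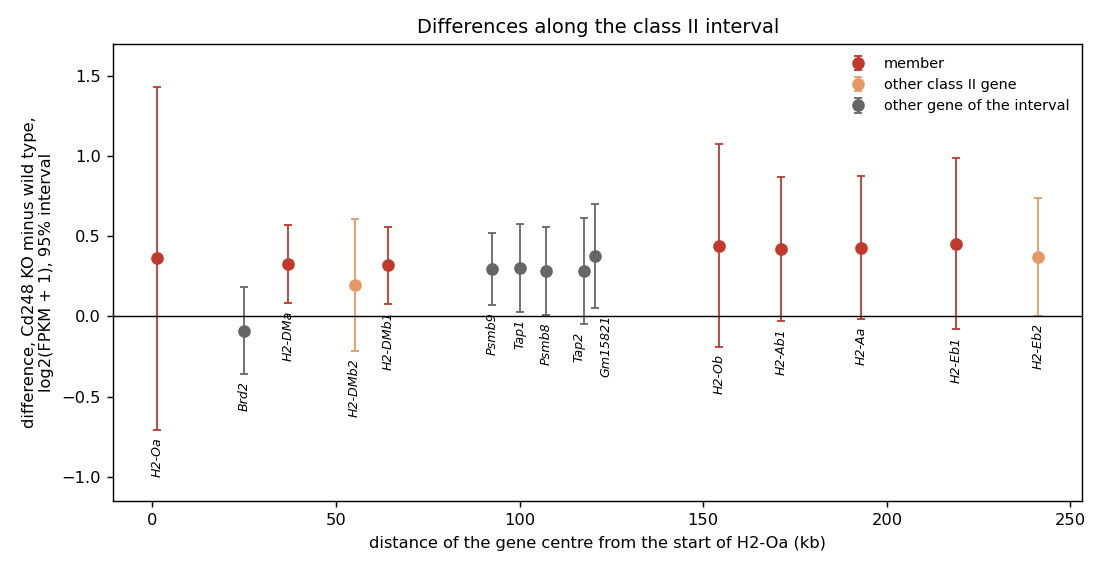
Difference of each tested gene on the log2(FPKM + 1) scale, with its 95% interval, against the distance of the gene centre from the start of H2-Oa in kb. Members are red, other class II genes orange and the remaining genes grey; 14 of 15 points lie above 0 and Brd2 lies at -0.09.

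Genes that act upstream of class II or beside it gave medians near 0. Of 9 genes of antigen processing and class II trafficking, 0 passed limma's test (median difference -0.02): Ctsd, an endosomal protease, was at 396 FPKM in the knockout, against 431, 384 and 552 FPKM in wild type libraries 1, 2 and 3. Ctss, the protease that trims the invariant chain, was at 218 FPKM in the knockout, against 255, 184 and 223 FPKM in wild type libraries 1, 2 and 3. Lgmn, an asparaginyl endopeptidase, was at 181 FPKM in the knockout, against 186, 185 and 226 FPKM in wild type libraries 1, 2 and 3. The knockout value lay inside the wild type range for Ctsd and Ctss and below every wild type library for Lgmn.

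Of 9 factors that bind class II promoters or act with CIITA, 0 passed (median -0.04). Nfyc, a subunit of the Y box factor, was at 13.0 FPKM in the knockout, against 13.0, 12.95 and 12.8 FPKM in wild type libraries 1, 2 and 3. Kat2b, an acetyltransferase, was at 12.5 FPKM in the knockout, against 12.8, 13.0 and 12.6 FPKM in wild type libraries 1, 2 and 3. Nfya, another Y box subunit, was at 6.74 FPKM in the knockout, against 9.33, 8.02 and 8.60 FPKM in wild type libraries 1, 2 and 3 (difference -0.32, 95% interval -0.62 to -0.02, limma adjusted p = 0.448). Nfya and Kat2b thus lay below every wild type library and Nfyc within the wild type range. Rfx5, a subunit of the RFX complex named after its values were seen, was above every wild type library. It was at 9.11 FPKM in the knockout, against 7.51, 7.56 and 7.35 FPKM in wild type libraries 1, 2 and 3 (difference 0.25, 95% interval 0.03 to 0.48, limma adjusted p = 0.430). The other RFX subunits went otherwise: Rfxap was at 5.72 FPKM in the knockout, below 6.77, 6.07 and 6.65 FPKM in wild type libraries 1, 2 and 3. Rfxank, at 6.18 FPKM in the knockout, lay inside the wild type range.

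The route from interferon gamma to Ciita gave 0 of 7 tested genes past the threshold and a median of 0.00. Ifng itself, the cytokine, did not pass the filter, with 0.36 FPKM in the knockout, against 0.36, 0.24 and 0.20 FPKM in wild type libraries 1, 2 and 3. Ifngr1, a receptor chain, was at 45.8 FPKM in the knockout, against 48.9, 45.8 and 43.1 FPKM in wild type libraries 1, 2 and 3. Jak1, a kinase of the receptor, was at 29.9 FPKM in the knockout, against 34.8, 32.9 and 32.6 FPKM in wild type libraries 1, 2 and 3. Neither receptor nor kinase stood above the wild type range. Ifngr2, the second receptor chain, was at 20.3 FPKM in the knockout, against 22.9, 21.4 and 20.7 FPKM in wild type libraries 1, 2 and 3.

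Among costimulatory ligands, which antigen-presenting cells show beside class II, 0 of 8 passed (median -0.01). Cd83 was at 8.94 FPKM in the knockout, against 10.1, 9.04 and 7.90 FPKM in wild type libraries 1, 2 and 3. Icosl, the ligand of ICOS, was at 7.39 FPKM in the knockout, against 7.39, 8.76 and 6.58 FPKM in wild type libraries 1, 2 and 3, and Cd86, a ligand of CD28, at 4.48 FPKM in the knockout, against 4.45, 4.58 and 4.68 FPKM in the same wild type libraries. These 3 knockout values lay inside the wild type ranges.

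On the T cell side, 0 of 12 genes passed, with a median difference of 0.36. With the values as deposited, 8 of 12 lay above every wild type library, against 28.0% of all tested genes. With libraries brought to the same FPKM total the median of the 12 was 0.23. On that scale 13.8% of all tested genes lay above, and the count for these 12 is not given here. Trbc2, a T cell receptor constant region, was at 15.1 FPKM in the knockout, against 14.2, 9.93 and 10.4 FPKM in wild type libraries 1, 2 and 3. Trbc1, the other beta constant region, was at 10.1 FPKM in the knockout, against 7.50, 7.17 and 5.30 FPKM in wild type libraries 1, 2 and 3, and the alpha constant region Trac at 9.49 FPKM in the knockout, against 8.85, 7.05 and 6.23 FPKM in the same wild type libraries. Cd4, the coreceptor that binds class II, was at 4.22 FPKM in the knockout, against 4.4, 3.67 and 3.37 FPKM in wild type libraries 1, 2 and 3, inside the wild type range.

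**Figure D5:**
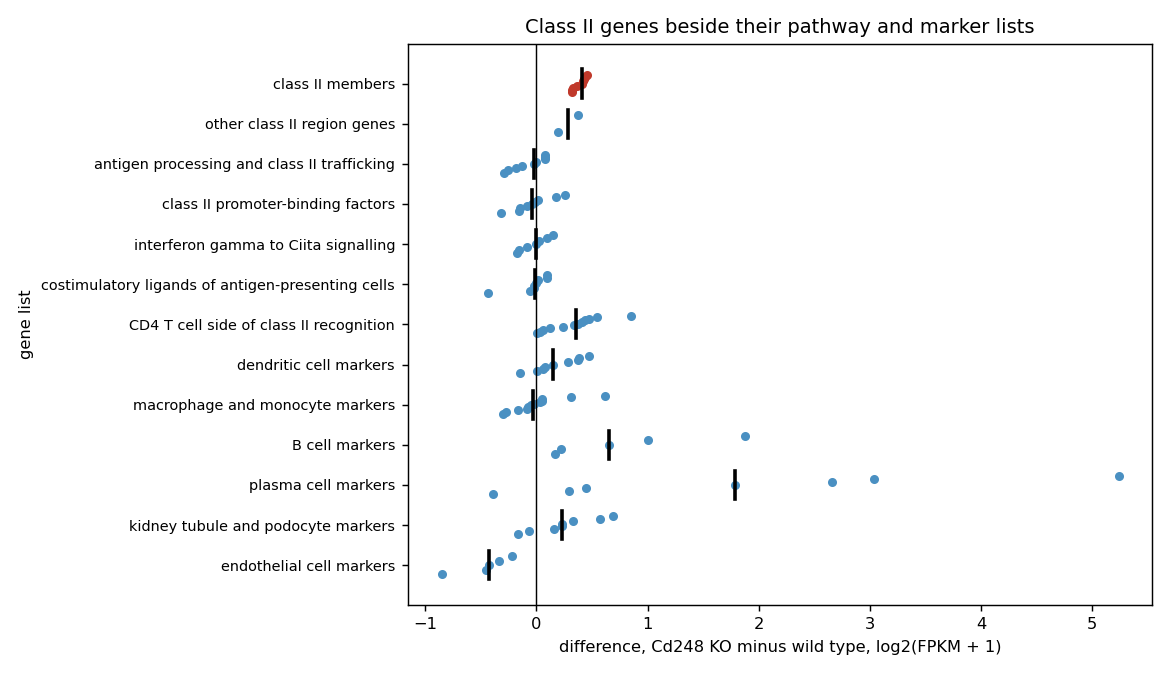
Differences on the log2(FPKM + 1) scale for the class II genes (red) and for pathway and marker lists (blue), 1 point per tested gene, with a black bar at each median. The class II genes cluster around 0.41; processing, promoter-binding, interferon and costimulatory genes centre near 0, and plasma cell markers reach 5.24.

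Markers of the cells that carry class II gave mixed values. Dendritic cell markers summed to 39.9 FPKM in the knockout, against 30.9 to 40.4 FPKM in wild type, with 0 of 9 tested markers past the threshold (median 0.14, 4 of 9 above every wild type library, against 28.0% of all tested genes). Itgax, an integrin of dendritic cells, was at 10.04 FPKM in the knockout, against 12.3, 8.96 and 9.12 FPKM in wild type libraries 1, 2 and 3. Cd209a, a lectin of a dendritic cell subset, was at 8 FPKM in the knockout, against 5.97, 6.64 and 5.14 FPKM in wild type libraries 1, 2 and 3. Clec10a, a lectin receptor, was at 4.81 FPKM in the knockout, against 5.30, 4.17 and 4.32 FPKM in those wild type libraries. Of these, Cd209a lay above the wild type range. The other markers above every wild type library, named after their values were seen, were Flt3, a growth factor receptor of dendritic cells and their precursors, and Clec9a and Xcr1, receptors of the cross-presenting subset. Flt3 was at 1.53 FPKM in the knockout, against 0.95, 0.98 and 0.93 FPKM in wild type libraries 1, 2 and 3 (difference 0.37, 95% interval 0.05 to 0.69, limma adjusted p = 0.424). Clec9a was at 4.89 FPKM in the knockout, against 3.94, 3.40 and 2.55 FPKM in wild type libraries 1, 2 and 3, and Xcr1 at 1.41 FPKM in the knockout, against 1.05, 1.16 and 0.74 FPKM in those wild type libraries. The ratio of the knockout to the wild type mean was 1.60 for Flt3, 1.48 for Clec9a, 1.43 for Xcr1 and 1.35 for Cd209a. For the other tested markers it was 1.14 for Ccr7, 1.06 for Batf3, 1.05 for Clec10a, 0.99 for Itgax and 0.87 for Zbtb46. The summed dendritic cell markers gave 1.14 and the summed classical chains 1.35. The classical chains over these markers stood at 23.02 in the knockout, against 19.00, 20.04 and 19.42 in wild type libraries 1, 2 and 3.

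Macrophage and monocyte markers summed to 614 FPKM in the knockout, against 521 to 690 FPKM in wild type, with 0 of 12 past the threshold (median -0.03). C1qa, a complement chain made by macrophages, was at 173 FPKM in the knockout, against 188, 145 and 171 FPKM in wild type libraries 1, 2 and 3. C1qb and C1qc, the partner chains, were also inside the wild type range, with differences of 0.03 and 0.05. Of the 12, 2 lay above every wild type library and 1 below, against 28.0% and 31.2% of all tested genes. Named after their values were seen, those above were Ccr2, a chemokine receptor of monocytes, and Cx3cr1 (difference 0.31). Ccr2 was at 24.7 FPKM in the knockout, against 20.4, 13.7 and 14.2 FPKM in wild type libraries 1, 2 and 3 (difference 0.61, limma adjusted p = 0.496). Fcgr1 was the 1 below (difference -0.28), and Itgam (-0.30) and Cd68 (-0.17) were also negative but inside the wild type range.

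B cell markers summed to 21.6 FPKM in the knockout, against 8.88 to 11.8 FPKM in wild type, and 5 of 5 tested markers lay above every wild type library (28.0% of all tested genes), where the other 6 of the 11 did not pass the filter on low values (median difference 0.65, and 0.22 over all 11 with no filter). Cd79a, a subunit of the B cell receptor that plasma cells also keep, was the 1 of 5 that passed (0.640% of all tested genes passed as higher). It was at 6.69 FPKM in the knockout, against 1.34, 1.13 and 0.83 FPKM in wild type libraries 1, 2 and 3 (difference 1.88, limma adjusted p = 0.0422). Its call was lost whichever of the 3 wild type libraries was left out (limma adjusted p from 0.134 to 0.196). Ms4a1 (CD20), a marker of B cells that plasma cells lack, was at 0.50 FPKM in the knockout, against 0.22, 0.20 and 0.11 FPKM in wild type libraries 1, 2 and 3.

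Plasma cell markers summed to 423 FPKM in the knockout, against 73.5 to 96.5 FPKM in wild type. Of 7 tested, 4 passed as higher (Mzb1, Jchain, Derl3 and Pou2af1), against 0.640% of all tested genes. Sdc1 of the same list went the other way, at 18.5 FPKM in the knockout, below 32.1, 24.0 and 19.2 FPKM in wild type libraries 1, 2 and 3 (difference -0.39, limma adjusted p = 0.680). Jchain, which links antibody multimers, was at 310 FPKM in the knockout, against 10.7, 6.60 and 5.29 FPKM in wild type libraries 1, 2 and 3 (limma adjusted p = 0.0195). Mzb1, which helps antibody chains fold in plasma cells, was at 17.6 FPKM in the knockout, against 1.20, 1.24 and 1.35 FPKM in wild type libraries 1, 2 and 3 (limma adjusted p = 0.00342). Mzb1 passed whichever wild type library was left out. Of those 3 fits, Jchain passed only in the one without library 1 (limma adjusted p up to 0.119), Pou2af1 only in the one without library 2 (up to 0.0866) and Derl3 in none (up to 0.122). Tnfrsf17, which did not pass the filter, was at 1.19 FPKM in the knockout and listed at 0 in wild type libraries 1 and 2 and at 0.13 FPKM in library 3.

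Markers of the resident kidney cells were also measured. Tubule and podocyte markers summed to 730 FPKM in the knockout, against 480 to 851 FPKM in wild type, with 0 of 8 past the threshold (median 0.23). Slc34a1, the phosphate transporter of the proximal tubule, was at 116 FPKM in the knockout, against 32.8, 79.8 and 142 FPKM in wild type libraries 1, 2 and 3. Slc12a1, the cotransporter of the thick ascending limb, was at 38.95 FPKM in the knockout, against 26.2, 40.8 and 33.8 FPKM in wild type libraries 1, 2 and 3. Both lay inside the wild type range, as did Umod. Endothelial markers summed to 58.7 FPKM in the knockout, against 75.8 to 97.8 FPKM in wild type, with 0 of 5 past the threshold and 5 of 5 below every wild type library (31.2% of all tested genes). Cdh5, the cadherin of endothelial junctions, was at 15 FPKM in the knockout, against 29.1, 32.1 and 23.3 FPKM in wild type libraries 1, 2 and 3 (difference -0.85, limma adjusted p = 0.305), and the differences of Pecam1 and Emcn were -0.45 and -0.34. No marker of these lists was at 0 in every library. The part of these cell types in the class II values was not tested.

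The genes whose pattern over the 4 libraries was most like that of the classical chains and Cd74 were sought among 8596 other genes averaging 5 FPKM or more, by the root mean square distance between centred log2(FPKM + 1) values. The nearest 5 were Neat1, a nuclear long noncoding RNA, at a distance of 0.020, Tesc (0.026), Eif3j2 (0.031), Gm8995 (0.032) and Plau, the urokinase plasminogen activator (0.033), against a median distance of 0.228. Neat1 was at 78.4 FPKM in the knockout, against 66.8, 60.5 and 54.3 FPKM in wild type libraries 1, 2 and 3, and Plau at 195 FPKM in the knockout, against 158, 149 and 133 FPKM in the same wild type libraries. Among the members that did not set the pattern, Ciita was the closest, with 12 of the 8596 genes nearer than it, followed by H2-DMa with 91 and H2-DMb1 with 104, while 255 were nearer than H2-Ob and 4467 nearer than H2-Oa. With 4 libraries, such closeness describes these samples only.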

How the data were processed

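Oligo(dT)-purified RNA was sequenced, per the labels' protocols. The submitters' processing notes name cutadapt 1.9, FastQC, HISAT2 2.0.4 and mm10, without roles; the program behind the expression values and its strand setting are given nowhere in the sources used here. The reference comes from C57BL/6J mice, and the labels name no strain, so alignment across the polymorphic class II genes could not be checked. Per the file headers, the deposited values are FPKM, given to 2 decimals. A fold change by the authors (a ratio of the knockout library over the wild type mean), its log2, p-values and q-values were copied from the deposited table; their test is not stated.

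Groups and replicate numbers came from sample titles, which name 3 knockout and 3 wild type samples. The comparison had been planned over all knockout libraries with a value column, and 1 had one. With 1 knockout library the spread comes from wild type alone, and the knockout is assumed to vary like it. FPKM was analysed as log2(FPKM + 1), which understates changes of low genes, for genes averaging 0.5 FPKM or more across all 4 libraries, with limma 3.58.1 in R 4.3.3 (mean-variance trend, two-sided, Benjamini-Hochberg over 16871 genes, threshold 0.05; 2 residual and 2.32 prior degrees of freedom). Sums and ratios had exact permutation tests, which cannot go below 0.25. Depth is unknown, so no counting intervals are given. Gene positions are from GENCODE M21.

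The members and lists were chosen with earlier results of these data known. Named were all members, Cd248, listed genes past the threshold or otherwise the 3 most abundant of a list, and the 5 genes nearest in pattern; other genes were named after their values were seen.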

Additional observations from a re-analysis of the deposited data

How the results depend on the processing

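The class II result was rerun under 11 alternatives, and 0 of 9 genes passed limma's test in each. All 99 differences were positive, with a lowest adjusted p of 0.218 (H2-DMb1, no filter on low values). The median of the 9 was 0.41; it was 0.29 with every library scaled to 1 common FPKM total, 0.37 with immunoglobulin genes left out, 0.23 with quantile normalization (single genes from 0.06 for H2-Ab1 to 0.42 for H2-Ob), and between 0.31 and 0.50 when 1 wild type library was left out. Of the 9 genes, 8 lay above every wild type library (28.0% of all genes). This became 7 with the same FPKM total (13.8% of all genes) and 5 with quantile normalization (24.2% of all genes). It was 9 without wild type library 1, where 39.4% of all genes lay above the remaining ones. It was 8 without library 2 (32.5% of all genes) and 8 without library 3 (32.8% of all genes). The log2 difference of the summed H2-M genes was 0.33, and 0.20 with the same FPKM total. The cause of these shifts was not tested. Of all 16871 genes, 122 passed; 39 did with a pseudocount of 0.1 FPKM, 976 with no filter, where 33679 genes were tested, 6 with immunoglobulin genes left out, and between 45 and 73 with 1 wild type library left out. Of 132 medians of the pathway and marker lists under the alternatives, 19 moved by more than the spread between wild type libraries. No paired analysis was possible because only replicate number 1 has a value in both groups, and for the same reason no knockout library could be left out. A single knockout library and an unknown depth limit every difference given here.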
